A study of Mus musculus and Homo sapiens with 12 samples.

Results

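The comparison described here is m5C immunoprecipitation (m5C-IP) against Input in chromatin-associated RNA (caRNA) of wild-type mouse embryonic stem cells (mESC). Its members are the 5815 of 54446 annotated genes that held at least 60 counts summed over the IP libraries and at least 300 counts summed over the Input libraries. Each kind of library was made 3 times. For IP, fragmented RNA of the chromatin fraction was bound by an antibody against 5-methylcytosine. For Input, the same kind of RNA was sequenced without pull-down. The cells were of the wildtype genotype, with embryos given as their source, and were grown without added treatment in serum, LIF and the inhibitors CHIR99021 and PD0325901. They were passaged on gelatin to remove feeder cells. The study describes its replicates as biological, while the labels do not say whether the libraries of a kind came from separate cultures. The p-values therefore measure the spread between these libraries, which may be technical.

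5-methylcytosine is a cytosine carrying a methyl group on its ring. In RNA it is placed by enzymes of the NSUN family and by TRDMT1, is well known in tRNA and rRNA, and can be oxidized by TET enzymes. Chromatin-associated RNA holds nascent, intron-containing transcripts, nuclear long noncoding RNAs and transcripts of repeats. An antibody pull-down reports how strongly fragments of a gene are retained compared with other genes of the same library, and not how many cytosines are methylated.

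The sequences that most clearly show where IP signal gathered inside members are the peak regions found in all 3 IP libraries. They are printed for the 4 genes with the largest summed IP counts among the highest, lowest and most abundant members that hold such a region. Gm26917 and Gm42418 are annotated as lincRNA gene models next to each other on chromosome 17. RefSeq gives the name Rn18s-rs5, an 18S rRNA related sequence, to a locus that overlaps Gm42418. That locus, chr17:39846354-39848202 on the plus strand, begins just past the end of Gm26917 at 39846341. Whether reads of these 2 models come from rRNA was not tested. Gm26917 held 3 regions in its exons, at chr17:39843139-39843288, chr17:39844985-39845164 and chr17:39845940-39846106 on the plus strand of GRCm38. Gm42418 held 1 exonic region at chr17:39848178-39848426, plus strand. This region begins inside the Rn18s-rs5 locus, which ends at 39848202, and runs past that end. Gm23935 is annotated as a miRNA gene of 57 bases at chr16:11144125-11144181. Its region at chr16:11144012-11144220, plus strand, covers the whole gene and runs past both its ends. The region in Snx29, a gene of the sorting nexin family, lies in an intron at chr16:11488869-11489028, plus strand. Each sequence is given from 5′ to 3′ on that strand, and capitals mark CpG dinucleotides.
Gm26917, region 1: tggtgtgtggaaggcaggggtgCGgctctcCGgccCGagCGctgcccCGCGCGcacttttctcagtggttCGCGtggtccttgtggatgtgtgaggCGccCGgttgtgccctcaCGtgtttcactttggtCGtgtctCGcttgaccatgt
Gm26917, region 2: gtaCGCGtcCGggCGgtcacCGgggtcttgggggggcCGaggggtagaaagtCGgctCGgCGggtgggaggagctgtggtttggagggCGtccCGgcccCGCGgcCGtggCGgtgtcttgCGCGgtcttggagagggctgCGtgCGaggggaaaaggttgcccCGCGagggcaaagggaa
Gm26917, region 3: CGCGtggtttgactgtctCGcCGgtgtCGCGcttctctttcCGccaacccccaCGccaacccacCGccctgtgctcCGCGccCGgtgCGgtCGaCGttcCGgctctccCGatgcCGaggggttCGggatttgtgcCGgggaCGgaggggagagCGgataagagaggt
Gm42418: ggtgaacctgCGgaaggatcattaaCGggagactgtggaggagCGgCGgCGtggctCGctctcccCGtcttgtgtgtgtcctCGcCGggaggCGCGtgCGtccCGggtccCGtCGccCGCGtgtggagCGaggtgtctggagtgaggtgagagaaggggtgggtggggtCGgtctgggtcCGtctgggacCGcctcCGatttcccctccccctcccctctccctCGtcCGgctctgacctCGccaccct
Gm23935: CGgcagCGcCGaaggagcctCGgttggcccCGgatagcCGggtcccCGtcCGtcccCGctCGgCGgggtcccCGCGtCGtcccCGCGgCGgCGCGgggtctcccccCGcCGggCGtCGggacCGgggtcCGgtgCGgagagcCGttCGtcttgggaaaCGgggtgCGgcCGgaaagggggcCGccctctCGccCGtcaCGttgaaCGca
Snx29: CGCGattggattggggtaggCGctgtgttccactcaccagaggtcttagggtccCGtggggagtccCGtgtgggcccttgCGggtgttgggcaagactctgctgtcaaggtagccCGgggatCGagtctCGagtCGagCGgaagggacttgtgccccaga
The Gm23935 region was 78.0% G and C and held 36 CpG sites. The Gm26917 regions were 63.3%, 71.7% and 68.3% G and C, against 69.1% over the whole gene. The Snx29 region was 63.1% G and C inside a gene of 46.5%, and every base of it was repeat-masked, whereas the Gm26917 and Gm23935 regions held no masked base.

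Gene counts ranged from 29007088 to 34752646 in the Input libraries and from 473398 to 592324 in the IP libraries, so a floor of 3 counts stood for 0.0863 to 0.103 CPM (counts scaled to library size) in Input and 5.06 to 6.34 CPM in IP. Over all genes the summed Input was 58.5 times the summed IP, a ratio written f below. Pluripotency factors marked the cells: 17 of the 30 listed were members, with a summed Input of 5872 to 5890 CPM over the list. Sox2 lies inside another gene on its strand and was at 0 in every library, which the counting gives whatever its expression. The 20 listed feeder fibroblast markers summed to 135 to 136 CPM in Input and 365 to 431 CPM in IP, with S100a4 and Lum at 0. The 20 germ layer markers summed to 16.4 to 19.6 CPM in Input and 289 to 346 CPM in IP, with Ttr and Afp at 0 in Input. Tubb3 and Sox1 lie inside other genes as Sox2 does, and their zeros say nothing of expression. The 13 genes of the two-cell-like state summed to at most 1.24 CPM in Input and 106 CPM in IP, where Duxf3 held 90.3 CPM. In bulk libraries, few feeder cells and little RNA per stem cell cannot be told apart. The part of these cells in the results was not tested.

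How genes were counted bears on every feature described below. Of 6457 genes lying wholly inside a larger gene on the same strand, 10 (0.155%) held any Input count. Of 6270 lying inside a gene on the opposite strand only, 56.5% did, and of 41682 lying inside no gene, 67.1% did. Reads were therefore assigned by strand and over whole gene bodies, introns included, and a read shared by overlapping genes of a strand was given to neither. Gene length below is the length of the gene body.

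The thresholds select genes by the very counts that are compared, and this shapes the values of the rarer members. A gene with the same share of counts in both kinds of library reaches 60 IP counts at a summed Input of 60 f, which is 3512 counts or 36.3 CPM. Of the 5815 members, 1386 lay below 60 f and could enter only with a raised IP share, so their values are given as a description. Of the 5710 genes at or above 60 f, 4429 were members. Genes with a summed Input of at least 240 f, which is 14048 counts or 145 CPM, are called abundant here. There were 1851 of them, 1846 of which were members, so that the IP threshold removed almost none, and the analyses of length and base composition rest on them. At the IP threshold, Zfp131 and Tsc22d2 were inside with 60 IP counts each, and Nudt21 and Fem1b outside with 59 each. At the Input threshold, Gm26733 and Zbtb16 were inside with 300 and 302 Input counts, and Zfp385c and Ccnd2 outside with 299 and 298.

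Most abundant genes were called lower in IP than in Input, and the abundant genes together took a smaller share of the IP counts. Members together held 84.9% ± 0.0165 (SD, n = 3) of the Input counts and 70.7% ± 0.248 (n = 3) of the IP counts. Abundant genes held 61.0% ± 0.0818 of the Input counts and 38.5% ± 0.226 of the IP counts. The IP and Input libraries did not overlap in either share. Both sets were chosen on the counts that make up these shares, which are therefore given without a test.

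Genes were tested with edgeR under 3 scalings, because the scaling sets where no change lies. The median log2 IP/Input of the 20244 genes tested was -0.17 with TMM, 0.00 with RLE and 0.83 with library sizes alone. The last value means that the IP CPM of the median gene was 1.78 times its Input CPM. Values are therefore given as relative log2 IP/Input, the fitted log2 less the median of the genes tested, and a gene is called higher or lower only where all 3 scalings gave an adjusted p under 0.05 with the same sign. Adjusted p-values and SEs belong to the fitted log2, before that median is taken off. The relative values themselves were not tested against 0. Of the genes tested, 39.9% were called higher and 23.4% lower by this rule. Of the members, 1058 were called higher and 2564 lower. Of the 4429 members at or above 60 f, 121 were higher and 2564 lower. All 937 other higher members lay below 60 f, where none was lower, as the thresholds had to give. With TMM alone, 82.0% of the genes tested passed, and 1058 members were higher and 4106 lower.

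Among the 1851 abundant genes, 8 were called higher and 1561 (84.3%) lower. Their median relative log2 IP/Input was -1.78, with 80% of them lying between -2.38 and -0.87. The medians of the 3 IP libraries differed with an SD of 0.0217, and the median standard error of a gene was 0.115. Over the 4429 members at or above 60 f the median was -1.40. Over the 1386 members below 60 f it was 1.41, from which nothing is read. The most extreme of these was Gm10800 at 10.45, with 4.60 CPM in Input and 11117 CPM in IP, a gene named here after its value was seen.

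**Figure D1:**
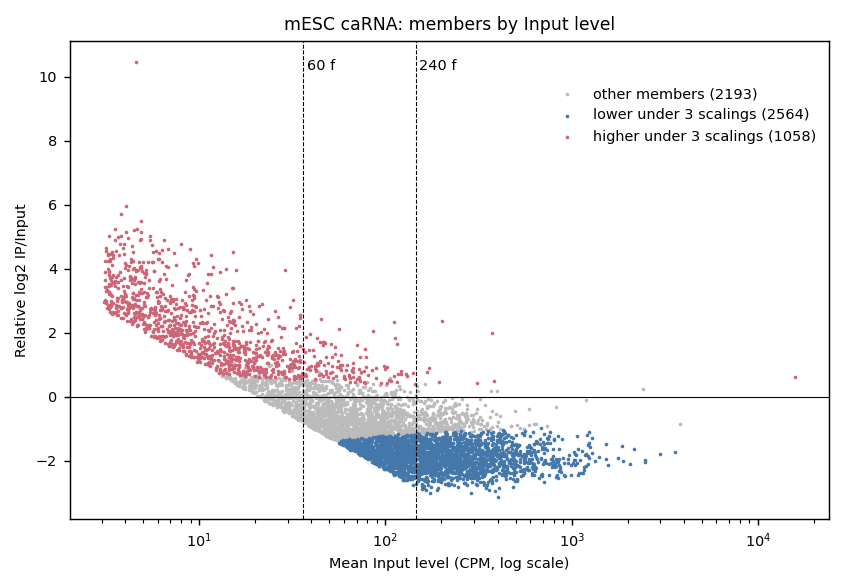
Relative log2 IP/Input (vertical axis) of the 5815 members against their mean Input level in CPM (horizontal axis, log scale), 1 point a gene, with dashed lines at 60 f and 240 f. The slanting lower edge on the left is the IP threshold of 60 counts; right of 240 f, 8 points are called higher and all but a few lie below 0.

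The most abundant members by Input CPM, which was not corrected for length, comprised Gm26917 and Gm42418, higher in IP than in Input CPM, Malat1, whose values overlapped, and 7 protein-coding genes that were lower. Gm26917 had 17250, 15105 and 15111 CPM in the Input libraries and 43750, 41768 and 41135 CPM in the IP libraries. All IP values lay above all Input values, and the gene was called higher, at a relative log2 of 0.62 ± 0.04 (SE, edgeR adjusted p = 4.61e-08). Gm42418 had 2598, 2319 and 2345 CPM in Input and 5169, 4926 and 5088 CPM in IP. Its groups did not overlap either, and its relative log2 was 0.26 ± 0.04. With TMM its fitted log2, 0.09, missed the threshold (edgeR adjusted p = 0.0539). Gm42418 passed with RLE, library sizes, DESeq2 and without any single IP library, at a relative log2 of 0.26 to 0.31. It missed the threshold without any single Input library, at 0.23 to 0.32. The Malat1 gene, which makes a nuclear-retained lncRNA of speckles, had 3956, 3682 and 3781 CPM in Input and 3777, 3787 and 3638 CPM in IP. These groups overlapped, and Malat1 was not called under all 3 scalings, with a relative log2 of -0.83 ± 0.04.

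Dst and Macf1, which encode giant linkers between cytoskeletal filaments, show the common pattern. Dst had 3594, 3580 and 3567 CPM in Input and 1842, 1882 and 1913 CPM in IP, a relative log2 of -1.73 ± 0.04 (edgeR adjusted p = 1.71e-15). Macf1 had 2967, 2976 and 2960 CPM in Input and 1483, 1473 and 1590 CPM in IP, a relative log2 of -1.77 ± 0.04. In both genes every IP value lay far below every Input value. Arl15, a small GTPase of the ARF-like family, lay at -2.03, the histone acetyltransferase gene Kat6b at -1.95, the exocyst subunit gene Exoc4 at -1.64, the junction scaffold gene Magi1 at -2.09 and the fibronectin gene Fn1 at -1.99. All of these genes were called lower.

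Long gene models led the upper end. Among members at or above 60 f whose IP and Input values did not overlap and whose call held under all 3 scalings, the highest were Magi2, Gm20388, Fgfr2, Pdzd2, Prkce, Gm23935, Ttc28, Man1c1, Coro2b and Snx29. Their relative log2 ran from 1.84 to 2.43. Except for Gm23935, they were protein-coding models of 118 to 4435 kb. Magi2, a scaffold gene of cell junctions, had 44.5, 45.7 and 45.4 CPM in Input and 380, 474 and 415 CPM in IP, a relative log2 of 2.43 ± 0.10 (edgeR adjusted p = 9.42e-12). Snx29 had 115, 115 and 109 CPM in Input and 811, 731 and 591 CPM in IP, a relative log2 of 1.84 ± 0.09. Every IP value of these genes was several times every Input value. Prkce, which encodes protein kinase C epsilon, lay at 2.06 and Fgfr2, a receptor of fibroblast growth factors, at 2.35. Coro2b, a coronin of the actin cytoskeleton, lay at 1.86 and Man1c1, a Golgi mannosidase, at 1.88.

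Some of these models span many other genes. Gm20388, annotated over 4435 kb of chromosome 8, contains 88 genes of its own strand, all at 0 counts in every library, and 119 genes of the opposite strand. Fgfr2 is annotated over 2961 kb and contains 35 genes of its own strand, also at 0. A signal per length, taken from 2008 genes of smell, pheromone and taste receptors that stem cells hardly use, gives the size of a low, even count over gene bodies: 55.4, 73.8 and 76.0 counts per Mb in the IP libraries and 138, 146 and 162 counts per Mb in the Input libraries. Relative to depth this was 0.117 to 0.128 CPM per kb in IP and 0.00443 to 0.00475 CPM per kb in Input. Over the length of Magi2 it would make up 43.0% of the IP counts, over Fgfr2 37.2%, over Gm20388 30.2% and over Snx29 7.63%. With this signal subtracted per kb of gene body, the relative log2 was 2.22 for Magi2, 2.27 for Fgfr2, 2.40 for Gm20388 and 2.15 for Snx29. These values came from CPM with a pseudocount of 0.5 and not from the fit, so the scales differ. The subtraction was chosen after the data were seen, and the part of the signal in single genes was not tested.

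Gm23935 had 402, 359 and 361 CPM in Input and 2638, 2569 and 2669 CPM in IP, a relative log2 of 2.01 ± 0.05 (edgeR adjusted p = 6.68e-14). IP exceeded Input in every library, and the receptor-gene signal over its 57 bases was negligible. Its region in all 3 IP libraries was 209 bp wide, and whether the reads come from a miRNA or from other RNA was not tested. The 8 abundant genes called higher were Gm23935, Gm20388, Gm26917 and, named because they make up this count, Camta1, Tnrc18, Zfp710, 3110082I17Rik and Eda, chosen after their values were seen. Camta1, a calmodulin-binding transcription activator, had 372, 388 and 381 CPM in Input and 1084, 821 and 910 CPM in IP, a relative log2 of 0.49 ± 0.08. For Eda, the gene of ectodysplasin, the values were 186, 202 and 192 CPM in Input and 520, 434 and 454 CPM in IP, a relative log2 of 0.47 ± 0.09. Tnrc18 lay at 0.76, 3110082I17Rik at 0.89 and Zfp710 at 0.44. With TMM the call of Camta1 was lost without Input replicate 1, at a relative log2 of 0.49. That of Eda was lost without Input replicate 1 or 3, at 0.45 and 0.47. That of Zfp710 was lost without any single Input library, at 0.42 to 0.43, and without IP replicate 3, at 0.38.

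At the lower end the same rule gave Snx5, Zfp207, Eif1a, Fam208a, Ect2, Tex10, Uba3, Atr, Ncapg2 and Eif4g2, which lay between -3.12 and -2.85. Their gene bodies measured 15.3 to 94.2 kb with 36.3% to 42.2% G and C. Snx5, a sorting nexin of the retromer pathway, had 400, 399 and 406 CPM in Input and 97.2, 81.6 and 65.8 CPM in IP, a relative log2 of -3.12 ± 0.11 (edgeR adjusted p = 7.24e-13). Ect2, which acts in cytokinesis, had 364, 356 and 357 CPM in Input and 57.0, 91.8 and 94.5 CPM in IP, a relative log2 of -2.92 ± 0.12. No IP value of these genes reached the lowest Input value. The others include the translation initiation factor genes Eif1a and Eif4g2, the checkpoint kinase gene Atr, the condensin II subunit gene Ncapg2, Uba3, a subunit of the NEDD8-activating enzyme, Zfp207, a zinc finger protein of the spindle, and Fam208a, a subunit of the HUSH silencing complex. The IP threshold bounds how low a member can lie, and mean Input CPM was at least 157 for each of these genes.

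**Figure D2:**
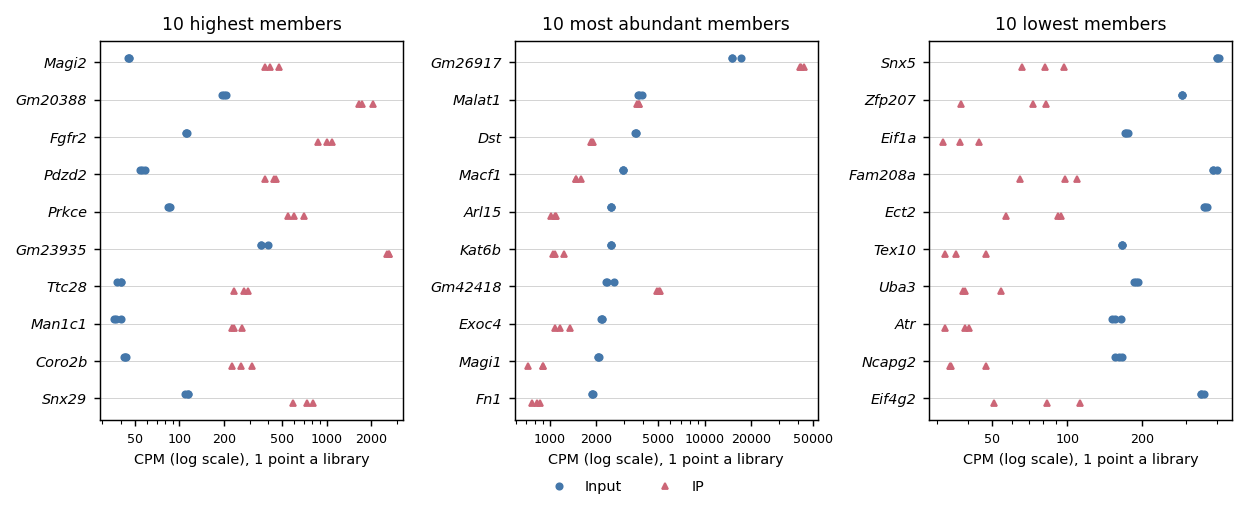
CPM (horizontal axis, log scale) of the 10 highest, the 10 most abundant and the 10 lowest members, with 1 circle for each of the 3 Input libraries and 1 triangle for each of the 3 IP libraries. Input and IP points are apart in every gene but Malat1; in the most abundant genes, IP lies above Input for Gm26917 and Gm42418 alone.

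Among abundant genes, the relative log2 IP/Input rose with gene length. In 5 equal groups by length the medians were -2.01 in genes of up to 37.7 kb, -1.96, -1.84, -1.69 and, in genes of 164 kb and longer, -1.33. The share called lower went from 94.3% in the shortest group to 63.5% in the longest. The longest and shortest groups differed by 0.68 ± 0.03 (SD over the 3 IP libraries). Across the 1851 genes Spearman's correlation was 0.41, a description over genes that share the same 6 libraries. Exonic length did not follow the same course: the correlation was 0.04, and the medians of its 5 groups stayed between -1.85 and -1.74. After the receptor-gene signal per kb of gene body was subtracted from every gene, an alternative chosen after the data were seen, the difference between the longest and shortest groups was 0.50.

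Base composition was graded in the same way. By gene-body GC the medians of the 5 groups were -2.06 at up to 39.6%, -1.93, -1.77, -1.64 and -1.52 at 46.4% and above. By exonic GC they ran from -2.10 at up to 41.8% to -1.52 at 50.9% and above, a difference of 0.58 ± 0.03. Cytosine and guanine were graded alike. The exonic share of C gave a correlation of 0.39 and that of G one of 0.31, and the 2 shares rose together across genes (Spearman's correlation = 0.76). The groups with the highest and lowest exonic C differed by 0.56 ± 0.05. Of the abundant genes called higher, 6 lay in the group with the most exonic C and 2 in the next.

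**Figure D3:**
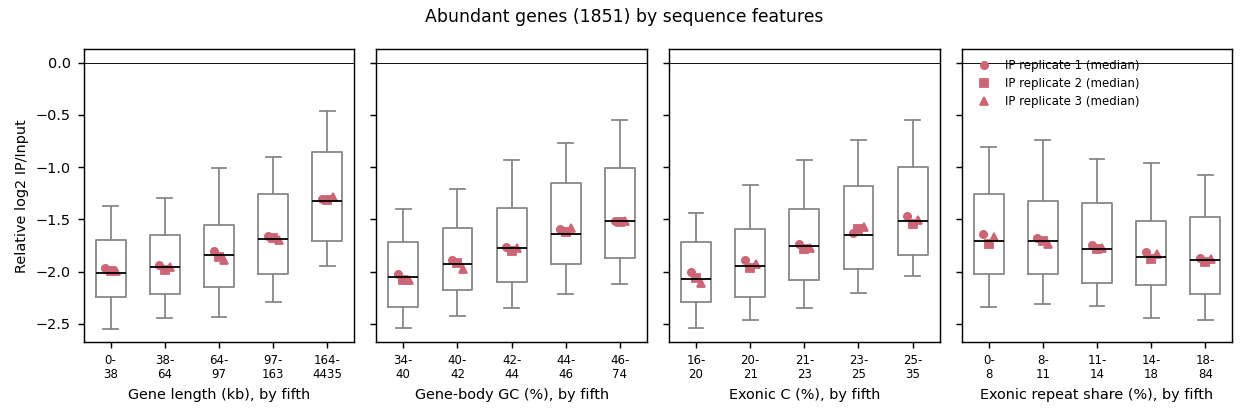
Relative log2 IP/Input (vertical axis) of the 1851 abundant genes in 5 equal groups by gene length, gene-body GC, exonic C and exonic repeat share (horizontal axes, ranges printed). Boxes span the quartiles with the median as a line, whiskers the 10th to 90th percentiles; red points are medians in each IP library against mean Input, shifted by 1 constant to the scale of the fit. Medians rise from -2.01 to -1.33 with length and from -2.06 to -1.52 with gene-body GC.

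Length and GC were graded side by side, although longer abundant genes were slightly poorer in GC (Spearman's correlation = -0.12). When abundant genes were divided into 3 groups by length and 3 by gene-body GC, the lowest median, -2.18, was that of genes of up to 56.1 kb with up to 40.9% GC (175 genes, 172 called lower). The highest, -1.15, was that of genes of at least 113 kb with over 44.4% GC (185 genes, 104 called lower). Within the shortest group the medians rose with GC from -2.18 to -1.79, and within the longest from -1.71 to -1.15. SDs of these medians over the IP libraries were between 0.0125 and 0.0449, smaller than the steps.

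**Figure D4:**
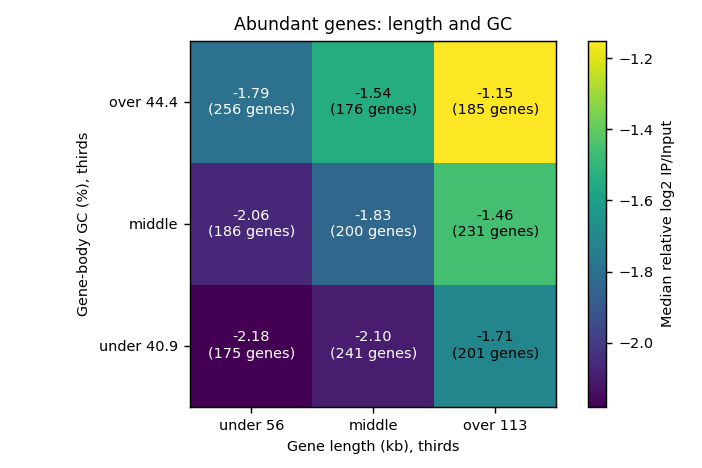
Median relative log2 IP/Input (colour and upper number) of abundant genes in 3 groups by gene length (horizontal, kb) and 3 by gene-body GC (vertical, %), with the number of genes in parentheses. Values rise from -2.18 at the lower left to -1.15 at the upper right.

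Repeat content gave a weaker and less settled picture. Abundant genes with the most repeat-masked exonic sequence lay 0.19 ± 0.03 below those with the least. The order turned, to 0.55 above, when the median of genes of like exonic GC was removed, and over whole gene bodies the difference was -0.08. The reference marks repeats by lower-case letters and does not name their families, and reads aligned to several places stood in a summary line, not in genes.

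The composition of the counts of abundant genes, which were chosen by Input alone, differed between the kinds of library. The count-weighted mean exonic GC was 47.0% ± 0.0452 in Input and 49.9% ± 0.0688 in IP. The same mean of exonic C was 22.9% ± 0.0206 in Input and 24.3% ± 0.0347 in IP. Over whole gene bodies, the span over which reads were counted, the mean GC was 43.7% ± 0.0554 in Input and 46.8% ± 0.0713 in IP. The share of C over gene bodies was not calculated. The count-weighted mean gene length was 151 kb ± 0.539 in Input and 174 kb ± 2.56 in IP (n = 3 for all). The model Gm20388 weighs heavily on this length, with 4435 kb and a mean of 201 CPM in Input and 1818 CPM in IP. The mean length was not recalculated without Gm20388. The libraries did not overlap in any of these means. Each exact permutation test, two-sided, gave p = 0.1, the smallest that 3 libraries against 3 allow. Gm26917, with 69.1% exonic GC, weighs on the GC means. This gene held 1.58% of all Input and 4.22% of all IP gene counts, where abundant genes held 61.0% and 38.5%. The GC and C means were not recalculated without Gm26917. Over all members, genes below 60 f entered through a raised IP share, so the means there are given as a description. They were 47.5% and 49.5% for exonic GC, 23.2% and 24.3% for exonic C, and 130 kb and 179 kb for length. The weighted repeat share of exons was 12.5% ± 0.0121 in Input and 11.5% ± 0.0494 in IP over abundant genes. Over members it was 12.5% ± 0.00912 in Input and 13.1% ± 0.0975 in IP, so that its direction turned with the set. Gm26917, 5.02% repeat-masked, weighs on this share as well, which was not recalculated without that gene.

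By biotype, members comprised 5613 protein-coding genes, 170 lncRNA genes, 19 pseudogenes and 13 small RNA genes, the last class taken here to include rRNA genes. Among abundant genes, lncRNA genes supplied 5.19%, 4.77% and 4.78% of the counts in the Input libraries and 15.0%, 14.5% and 14.3% in the IP libraries (exact two-sided permutation p = 0.1, the smallest possible). IP lay above Input in every library. Without Gm26917 and Gm42418, an alternative chosen after their counts were seen, the shares were 1.98% ± 0.0222 in Input and 2.64% ± 0.0424 in IP. Both are classed as lncRNA by annotation, although Gm42418 overlaps the 18S rRNA related locus and Gm26917 ends just before it. Gm26917 alone held 1.58% ± 0.124 of all Input gene counts and 4.22% ± 0.136 of all IP gene counts. Abundant small RNA genes supplied 0.223% ± 0.00659 of the counts in Input and 0.853% ± 0.00590 in IP. Of these 5 genes, 3 were called lower and 1, Gm23935, higher, with means of 374 CPM in Input and 2626 CPM in IP. The small RNA shares were not recalculated without Gm23935. Over all members the lncRNA shares were 4.17% in Input and 9.58% in IP, and 2.07% and 3.10% without Gm26917 and Gm42418, again as a description.

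Gene by gene, the lncRNAs were not set apart in the same measure. Among the 25 abundant lncRNA genes, 17 were called lower and 1, Gm26917, higher, with a median relative log2 of -1.47. Among the 1819 abundant protein-coding genes, 1540 were lower and 6 higher, with a median of -1.78. Pvt1 had 1035, 1062 and 1073 CPM in Input and 461, 541 and 566 CPM in IP, a relative log2 of -1.81. For Kcnq1ot1, the imprinted antisense transcript of the Kcnq1 domain, the values were 868, 864 and 856 CPM in Input and 351, 332 and 270 CPM in IP, a relative log2 of -2.25. Both of these lncRNAs lay within the range of the protein-coding genes, with IP below Input in every library. Among the 13 listed nuclear lncRNAs that were members, 9 were lower and 2 higher, with a median of -1.77. The higher ones, named after their values were seen, were Airn at 1.80 and Snhg14 at 1.5, both transcripts of imprinted domains, and both lay below 60 f. Among the small RNA genes, mt-Rnr2, the large mitochondrial rRNA, had 484, 477 and 486 CPM in Input and 251, 248 and 245 CPM in IP, a relative log2 of -1.76. Of the pseudogenes, Gm7240 lay at -1.44 and was lower, and 4930519F16Rik lay at -0.53 and was not called.

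Lists of genes by function had medians below 0, except the feeder and germ layer markers. Counts below are of members. For comparison, 57.9% of the members at or above 60 f were lower, with a median of -1.40, and 84.3% of the abundant genes, with a median of -1.78. Over all members 44.1% were lower and 18.2% higher, with a median of -1.06. A member below 60 f could enter only through a raised IP share, so a higher call there is read as nothing more than that, and the genes concerned are pointed out. These shares describe the lists, which were not tested as sets.

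RNA-binding and splicing genes had the lowest medians among lists of at least 10 members. Of 19 SR and related splicing factors, 16 were members and all 16 were lower, with a median of -2.01. Srrm2, a scaffold of nuclear speckles, had 703, 711 and 710 CPM in Input and 346, 503 and 341 CPM in IP, a relative log2 of -1.63. Son, another speckle protein gene, lay at -2.05 and Srrm1 at -1.70. Of 24 hnRNP genes, 19 were members, of which 18 were lower and none higher, with a median of -2.01. Hnrnpu lay at -1.69, Hnrnpa2b1 at -1.55 and Hnrnpm at -2.17. The median gene-body length of the members was 14.0 kb for SR proteins and 14.1 kb for hnRNPs, against 58.3 kb for all members.

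Genes that act on chromosomes showed the same direction. All 18 cohesin and condensin genes that were members were lower, with a median of -1.85. Stag1 lay at -2.11, the cohesin loader gene Nipbl at -1.76 and Pds5a at -2.38. Of 19 replication genes, 17 were lower, with a median of -1.89, among them Pola1, a subunit of DNA polymerase alpha, at -2.37, Lig1 at -1.89 and Pole at -1.73. Of 16 genes of H3K9 methylation and silencing, 14 were lower, with a median of -1.90. Atrx had 1107, 1099 and 1123 CPM in Input and 543, 491 and 466 CPM in IP, a relative log2 of -1.96. No gene of these 3 lists was higher. Among nucleoporins 14 of 16 were lower, with a median of -1.95, and 1, Nup210l at 1.22, was called higher but lay below 60 f.

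Polycomb genes, remodellers, DNA methylation genes and zinc finger genes followed. Genes named in this paragraph as higher were chosen after their values were seen. Among their abundant genes, 9 of 10, 18 of 21, 3 of 3 and 22 of 33 were lower, and 1, Zfp710, was higher. Of 22 Polycomb genes, 13 were lower and 2 higher, with a median of -1.51. Jarid2, a PRC2 accessory subunit, had 1235, 1222 and 1224 CPM in Input and 534, 442 and 520 CPM in IP, a relative log2 of -2.11. Mtf2 lay at -2.16 and Rybp, a subunit of variant PRC1, at -2.63, while Bcor (0.77) and Pcgf5 (0.85, below 60 f) were higher. Of 27 remodellers, 19 were lower and 2 higher, with a median of -1.49, including Chd4 at -1.32, Chd2 at -2.11 and Chd6 at -1.79, while Smarca2 (2.81) and Setd1b (0.79), both below 60 f, were higher. Of 11 DNA methylation genes, 7 were lower and 2 higher, with a median of -1.33, including Dnmt1, the maintenance methyltransferase, at -1.60, its partner Uhrf1 at -1.87 and Zbtb38 at -1.33. The higher ones were Dnmt3a, a de novo methyltransferase, at 0.99 and, below 60 f, Zbtb4 at 1.48. Of 89 zinc finger genes named Zfp, 42 were lower and 11 higher, with a median of -1.21, with Zfp704 at -2.02, Zfp292 at -2.43 and Zfp407 at -1.88. All the higher ones but Zfp710 lay below 60 f.

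Genes of the m5C pathway, whose products write, read or oxidize the mark or act with TET2, had 14 members of 23 listed. Of these, 10 were lower and 2 higher, with a median of -1.84. Tet1 had 1172, 1196 and 1182 CPM in Input and 534, 626 and 576 CPM in IP, a relative log2 of -1.83. Tet2 had 576, 595 and 587 CPM in Input and 268, 173 and 196 CPM in IP, a relative log2 of -2.29. In both, each IP value lay below each Input value. Asxl2, a partner of the BAP1 deubiquitinase, lay at -1.85. The 2 higher members were Tet3 at 1.07 and Foxk1 at 1.33, named as the only such members after their values were seen, with 25.6 and 53.4 CPM in Input, so that Tet3 lay below 60 f.

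Pluripotency genes were lower in 15 of 17 members, with none higher and a median of -1.77. Esrrb, a nuclear receptor of the naive state, had 790, 796 and 793 CPM in Input and 287, 326 and 336 CPM in IP, a relative log2 of -2.12. Rif1 lay at -2.20 and Tfcp2l1 at -1.30. The 2 members not called were Lifr at -0.60 and L1td1 at -0.69, named after their values were seen. Of the feeder markers 4 were members. Loxl1 (1.83) and Acta2 (2.83), the latter named after its value was seen, were higher, and Col5a1 (-0.12) and Col1a1 (-0.36) were not called. Without 1 library Col5a1 ranged from -0.27 (IP replicate 1) to 0.09 (IP replicate 3). Col1a1 passed with TMM alone (edgeR adjusted p = 0.0363), and ranged from -0.13 without IP replicate 1, where that call was lost, to -0.54 without IP replicate 2. The single germ layer marker among the members, Gata4, had 5.52, 4.69 and 5.70 CPM in Input and 40.1, 49.3 and 64.2 CPM in IP, a relative log2 of 2.48. Loxl1, Acta2 and Gata4 lay below 60 f.

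Among housekeeping lists, members called higher are named after their values were seen. Of 32 ribosomal protein genes, 25 were lower and none higher, with a median of -1.49 and a median gene length of 4.30 kb. Rpl3 lay at -1.80, Rpl5 at -1.78 and Rpl4 at -1.69. Of 38 translation factor genes 31 were lower and 2 higher, with a median of -1.75, among them Eif4a2 at -2.17, Eif3a at -1.51 and Eef1a1 at -1.51, while Eif2ak1 (0.99) and Eif4g3 (0.93) were higher. Of 18 aminoacyl-tRNA synthetase genes 15 were lower, with a median of -1.79, Cars lying at -2.0, Eprs at -1.72 and Lars at -1.84. Of 13 glycolysis genes 8 were lower and 2 higher (median -1.65, with Pfkp at -2.22, Slc2a3 at -1.65 and Pkm at -2.06). Hk1 (0.96) and, below 60 f, Pfkm (0.66) were the higher ones. The proteasome list had 9 of 12 lower and 1 higher, with a median of -1.59, Psme4 lying at -2.38, Psmd14 at -2.24, Psmd1 at -2.04 and the higher one, Psmd9, at 0.71 and below 60 f. Of 12 nuclear-encoded respiratory chain genes 7 were lower and 1 higher, with a median of -1.58, and Ndufs4 lay at -1.79, Ndufaf2 at -1.5, Atp5c1 at -1.66 and the higher one, Atp5o, at 3.37 and below 60 f. All 4 mitochondrially encoded members were lower, with a median of -1.89, including mt-Co1 at -2.12. The 3 histone members were the linker histone genes Hist1h1d at -2.21, Hist1h1c at -2.33 and Hist1h1b at -1.87, all lower. The snoRNA host genes Gas5 and Snhg17 were lower, at -1.88 and -1.98. No gene of the smell, pheromone and taste receptor families was a member.

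**Figure D5:**
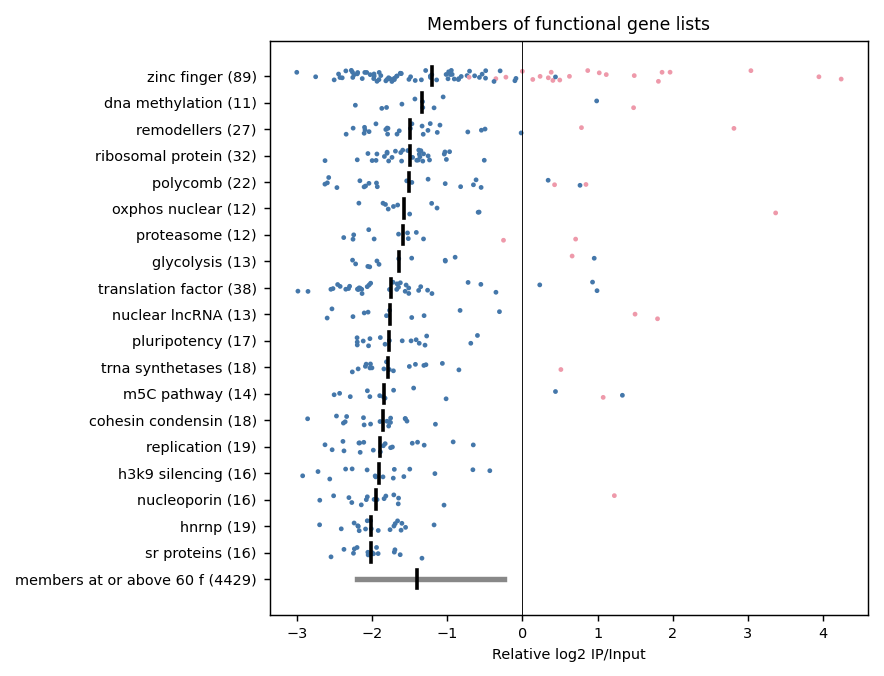
Relative log2 IP/Input (horizontal axis) of the members of each list with at least 10 members, 1 point a gene, blue at or above and pink below 60 f, with the list median as a black bar and the number of members in parentheses. The grey bar spans the 10th to 90th percentiles of the 4429 members at or above 60 f. List medians run from -2.01 for SR proteins and hnRNPs to -1.21 for zinc finger genes, and most points right of 0 are pink.

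Peak regions present in all 3 IP lists were uncommon in members. The deposited lists held 11012, 15235 and 15630 distinct peaks. Merged by strand they gave 35162 regions, of which 1711 were in all 3 libraries. On the strand of a member there were 139 of these regions, in 127 members (2.18%), 40 of them abundant. Of the regions 123 were intronic and 16 exonic. Their median width was 231 bp and their median GC content 58.4%, and 120 of 139 were richer in GC than the gene around them, where the median was 42.5%. The share of C on the strand of the region had a median of 25.3%. It ran from 0.0% in Galm and Snx4 to 44.7% in Gm49692, genes named after their values were seen. A region rich in GC was therefore not always rich in C. Intronic regions were mostly repeat-masked (median 100%) and exonic ones mostly not (median 0.42%).

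The 40 abundant genes that held such a region had a median relative log2 of -0.81 ± 0.13 (SD over the IP libraries), and 4 were higher and 13 lower. The other 1811 had a median of -1.79 ± 0.02, with 4 higher and 1548 lower. Median gene lengths were 208 kb with a region and 78.8 kb without. Among abundant genes of at least 113 kb the medians were -0.83 in 25 genes with a region and -1.48 in 592 without. Peaks were called on the IP reads that the ratio also uses, so these medians describe the same reads and were not tested. Over all genes, 329 of the regions found in all 3 libraries lay on the strand of a gene and 292 lay only opposite to one.

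The precision of single members was set by the IP libraries. Members had a median of 128 summed IP counts and 8717 summed Input counts, and a median standard error of 0.16 on the log2 scale. Each IP library was here set against the Input library of the same number, although these were not taken as pairs elsewhere. Between such log2 ratios, Spearman's correlations were 0.83 to 0.85 across members and 0.68 to 0.71 across abundant genes. Chromosomes differed little. Over the 21 chromosomes other than Y, which held 1 abundant gene, medians ranged from -2.01 for the 3 mitochondrial genes to -1.65 on chromosome 17.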

How the data were processed

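Reads of the 3 mESC m5C-IP and 3 mESC Input libraries had been processed by the authors: trimmed with Trimmomatic 0.39, aligned with HISAT2 2.1.0 to mm10 with spike-in sequences, and, for peaks, cleared of duplicates, separated by strand and called with MACS2 in each library with fragments extended to 150 bp. The deposited values are raw counts per gene with the summary lines of HTSeq; the counting settings for these libraries were not given in the sources used here. The deposited peak lists were used for positions only. Summary lines (19.0% to 19.3% of records in Input, 71.4% to 71.7% in IP) stayed out of library sizes. Spike-in lines and an IgG control pull-down described in the labels were not used here, so values are relative within a library and unspecific binding was not measured here. The antibody label names none for the IP libraries, and groups were taken from titles.

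Of 54446 gene rows, 99.9% matched GENCODE M21 (GRCm38). Tests used edgeR 4.0.16 under R 4.3.3 (quasi-likelihood, filterByExpr, Benjamini-Hochberg adjustment over 20244 genes), with TMM, RLE and no scaling factors; the common biological coefficient of variation was 0.0583. The standard error was the absolute log2 over the square root of F. Values per IP library used CPM with a pseudocount of 0.5. TMM factors were 0.697 to 0.715 in Input and 1.40 to 1.43 in IP. Shares were compared by exact two-sided permutation tests (SciPy 1.17.1). Their p-values are given for abundant genes, chosen by Input alone, and not for all members, some of which entered through a raised IP share. Floors cover counting error only, whereas SEs and SDs also hold the spread between libraries. Chi-square per degree of freedom between libraries of a kind was 2.03 to 3.89, so all libraries were kept as separate samples. On simulated counts over 20244 genes, 97 of 100 changes of 2-fold and 100 of 100 of 4-fold were recovered, and 4.83% of calls were false. Only 200 of the better counted genes were changed there, equally up and down, and all genes shared the common coefficient of variation. In the data 82.0% of the genes tested passed with TMM, so these rates do not carry over to them. Peaks were merged with bedtools 2.31.1 where they overlapped by at least 1 bp on a strand.

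Named genes were the 10 highest and 10 lowest members at or above 60 f without overlap and with the same call under 3 scalings, the 10 with most Input, the 2 with most Input in each biotype class, the 3 with most Input in each list, and those next to the thresholds; peak sequences came from up to 4 of them. Members, lists and rules were chosen with earlier results of these data known. Alternatives were other scalings, DESeq2 1.42.0, no filter, a replicate block, thinned Input, leaving out each library, other thresholds, subtraction of receptor-gene signal, removal of GC-bin medians and whole gene bodies.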

Additional observations from a re-analysis of the deposited data

Results flagged for a closer look

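These results were noticed in counts outside the comparison of members. Records outside annotated genes made up 43.7% of records in the IP libraries and 9.65% in the Input libraries, on average over 3 libraries of each kind. Records aligned to several places made up 26.9% in IP and 6.55% in Input. The summed level of the smell, pheromone and taste receptor genes, none of which is a member, was 1829 CPM in IP and 68.3 CPM in Input. All 3 IP libraries lay above all 3 Input libraries in each of these measures. Groups of 3 libraries were not tested for outlying libraries.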

How the results depend on the processing

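Depth of IP limits single genes, and the calls rest on 3 libraries of each kind. Over all genes tested, 16590 passed; other scalings, DESeq2, no filter and the block gave 14760 to 22395, and Input thinned to the depth of IP gave 6147 of 10279 tested. Leaving out 1 library gave 15240 to 16033. Members called higher under 3 scalings were 1058, and 915 to 1066 with 1 library left out; members called lower were 2564, and 2190 to 2526. With thresholds of 120 IP and 600 Input counts these counts were 452 and 1507, and with a summed Input of at least 240 f they were 8 and 1561, both of which hold fewer genes. Of the 3622 called members, 3109 to 3436 kept their call with 1 library left out, and none reversed.

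The numbers shared by an Input and an IP library were not taken as pairs: the correlations of their deviations were 0.0273, 0.0183 and 0.0269, although each library correlated best with its own number. With a replicate block, 15434 genes, 904 higher and 2348 lower members were called, and 3245 of 3622 member calls were kept. The TMM calls of Eda (0.53) and Zfp710 (0.46) were lost.

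Differences between the groups with most and least of a feature kept their direction except for repeats. Among abundant genes, exonic GC (0.58) gave 0.54 over whole gene bodies and 0.54 to 0.60 with 1 library left out, and exonic C (0.56) gave 0.50 to 0.57. Gene length (0.68) gave 0.64 with GC-bin medians removed and 0.50 with receptor-gene signal subtracted per kb of gene body. Exonic repeats (-0.19) gave 0.55 with GC-bin medians removed, -0.0817 over whole gene bodies and -0.23 to -0.16 with 1 library left out. Over members, exonic GC (1.21) gave 1.28 with that subtraction and 1.20 to 1.26 with 1 library left out. Exonic C (1.34) gave 1.40 with the subtraction and 1.25 with the thresholds of 120 and 600. Gene length (1.00) gave 1.18 with GC-bin medians removed, 0.65 with the subtraction, 1.02 with the higher thresholds and 0.97 to 1.02 with 1 library left out. Exonic repeats (-0.58) gave 0.0579, -0.18 over whole gene bodies, -0.51 with the higher thresholds and -0.61 to -0.55 with 1 library left out, the first with GC-bin medians removed. GC-bin medians were not removed for GC and C themselves. The count-weighted repeat difference (0.56) was -1.01 over abundant genes. The median of small RNA members (-0.09) was 0.0441 and 0.28 with the signal subtracted per kb of exon and of gene body, and -0.30 to 0.13 with 1 library left out. Col5a1 (-0.12) ranged from -0.27 to 0.0923. The cause of these changes was not tested. The subtraction per kb of gene body was chosen after seeing the data.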

Other observations

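A further 1065 genes held at least 60 summed IP counts but fewer than 300 summed Input counts, and were left out for their low Input. They were 787 protein-coding, 252 lncRNA and 25 pseudogene models among others, with a median length of 110 kb against 58.3 kb for members. They took 8.20% to 8.64% of the IP gene counts and 0.117% to 0.122% of the Input gene counts. Their median summed counts were 90 in IP and 88 in Input, from libraries that differ 58.5 times in depth. The receptor-gene signal per length would make up a median of 22.5% of their IP counts, against 8.60% in members and 7.19% in abundant genes.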
